A study of Rattus norvegicus with 10 samples.

Results

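The sites bound by SOX9 in RCS cells, a rat chondrosarcoma line, are described here together with the input library made for this immunoprecipitation. The members are all 14782 intervals of the deposited SOX9 peak list, of 252939 intervals in the 6 peak lists of the series. They were taken as deposited, without a further threshold. The series has 10 libraries, of which 6 are immunoprecipitations for SOX9, for its relative SOX6 and for the histone marks H3K27ac, H3K4me1, H3K4me3 and H3K9me3, and 4 are inputs without an antibody. The labels name the antibody (AB5535, Millipore) and give no genotype, treatment, time or culture for the cells, so the immunoprecipitation and its input differ, as far as the labels say, only in the antibody. All libraries stem from a single tumour line, and SOX9 has 1 immunoprecipitation and 1 input. No value below therefore has a replicate error, and nothing was tested between conditions. Ranges in parentheses after a value are 95% intervals, Wilson for shares and exact Poisson for rates. They allow for counting error alone, and peaks near each other are not independent.

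SOX9 is a transcription factor with an HMG box, the domain that binds DNA in the minor groove and bends it. It is required for cells to become and to remain chondrocytes, and it acts through enhancers of cartilage matrix genes such as Col2a1, the type II collagen gene, and Acan, the aggrecan gene. In these enhancers SOX9 often binds as a dimer to paired sites. Where several enhancers of 1 gene lie near each other, a factor can occupy a row of sites along the chromosome, which is why the spacing of SOX9 peaks within their own list is described first. The peak lists carry no gene names and no rn5 annotation was used, so no site is assigned to a gene and the cell type was not checked against marker genes.

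SOX9 peaks were unevenly spaced, with many close together in a small part of the genome and long gaps over much of the rest. The centre of the nearest other SOX9 peak was 23.0 kb away in the median, with quartiles of 5.08 and 73.0 kb. Gaps between the edges of successive peaks had a median of 56.7 kb, quartiles of 14.1 and 181 kb and a mean of 194 kb. The mean exceeded the upper quartile, so a minority of long gaps held much of the length. Of all SOX9 peaks, 19.3% had another SOX9 centre within 3 kb, 67.4% within 50 kb and 80.7% within 100 kb, while 338 peaks (2.29%) had none within 500 kb. In windows of 1 Mb the median was 3 SOX9 peaks and the highest was 34. A total of 577 of 2914 windows held none, and 16.7% of the windows held 50% of the peaks.

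**Figure D1:**
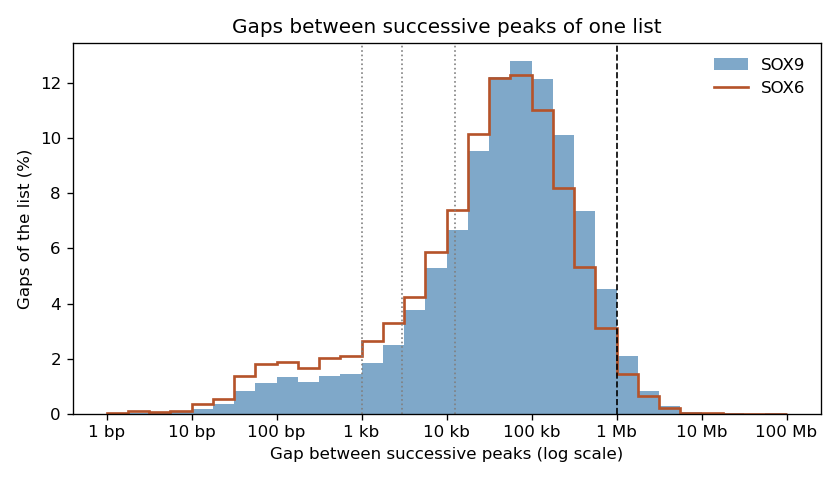
Share of gaps between successive peaks by gap length on a log scale, for SOX9 (filled) and SOX6 (line); dotted lines mark 1, 3 and 12.5 kb and the dashed line 1 Mb. Both lists have most gaps between 10 kb and 1 Mb and a low shoulder near 100 bp, and the SOX6 line lies to the left of the SOX9 columns.

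The SOX6 list, with 19355 peaks, was spaced more tightly, at a median of 13.7 kb to the nearest SOX6 centre. A longer list has shorter distances by its length alone. Cut to its 14782 highest-scoring peaks, the SOX6 list still had a median of 17.3 kb, against 23.0 kb for SOX9. This cut kept only SOX6 scores of 64.1 or more, whereas the SOX9 list kept all its scores, from 50.01 up. Spacing differed with score in the SOX9 list, as described next, so the cut matches the number of peaks alone. Both medians are values of 1 library, and the difference was not tested.

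A score was deposited for every SOX9 peak, and high-scoring SOX9 peaks had nearer neighbours. No source used here gives its scale, and it serves only to order the peaks of this list. In the lowest quintile of score (50.01 to 57.93) the nearest SOX9 centre was 34.6 kb away in the median, and in the highest quintile (244 to 3100) it was 13.8 kb away. The 3 quintiles between lay in order, at 26.4, 22.9 and 21.3 kb. Measured only among peaks of the same quintile, the median was 196 kb in the lowest and 98.6 kb in the highest. The highest-scoring peaks were thus nearer to each other than the lowest-scoring ones were to each other.

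Joining SOX9 peaks across gaps of at most 1 kb gave 1021 groups with 2196 peaks, 14.9% of the list (14.3% to 15.4%). At 3 kb there were 1443 groups with 3221 peaks (21.8%; 21.1% to 22.5%), and at 12.5 kb 2340 groups with 5839 peaks (39.5%; 38.7% to 40.3%). The other 8943 peaks were single at all 3 distances. Most groups were pairs, namely 896 of 1021 at 1 kb, 1196 of 1443 at 3 kb and 1639 of 2340 at 12.5 kb. Groups of 5 or more numbered 8, 19 and 115, and those at 12.5 kb held 666 peaks, 4.51% of the list. The largest had 7, 8 and 10 peaks. A median group was 1.55 kb long at 1 kb, 2.16 kb at 3 kb and 6.48 kb at 12.5 kb, and SOX9 peaks covered 84.8%, 68.1% and 25.5% of it.

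Members of a group of SOX9 peaks often differed widely in score. At 12.5 kb the highest score in a group had a median of 229 and the lowest a median of 64.7, while single peaks had a median of 82.9. The highest score was at least 2 times the next in 51.7% of these groups, and in 57.5% of those at 1 kb. Successive SOX9 peaks too far apart to be grouped differed nearly as much, with a median ratio of the higher to the lower score of 1.98 at gaps of 12.5 to 50 kb, against 2.34 at gaps of at most 1 kb. A larger group has more chances of a high score, and the median of its highest score went from 187 in pairs to 255 in groups of 3, 445 in groups of 4 and 645 in groups of 5 to 9. Over all members the medians lay close together, at 102, 104, 114 and 112. Neighbouring SOX9 peaks hardly resembled each other in score: across the 1175 successive pairs with a gap of at most 1 kb, Spearman's rho between the 2 scores was -0.08. Their widths resembled each other more, with a rho of 0.29. Widths of successive peaks farther apart also did so, with a rho of 0.17 at gaps of 12.5 to 50 kb and 0.13 at 200 to 1000 kb. All are descriptions across pairs within 1 library.

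The closest neighbours stood almost edge to edge. In 392 pairs the gap was at most 100 bp, and in 30 of them at most 10 bp; the shortest was 1 bp. Centres of the 392 pairs were 596 bp apart in the median, and the higher-scoring peak was wider, with a median of 614 bp against 447 bp. Of the 767 peaks in such pairs, 97.9% overlapped H3K27ac, 71.4% SOX6 and 56.6% H3K4me3, against 80.2%, 56.3% and 39.8% of all SOX9 peaks. Pairs with longer gaps were much alike in these shares, with 97.6%, 69.2% and 58.1% at 100 to 300 bp. At 300 to 1000 bp the shares were 96.7%, 65.8% and 51.6%. The higher-scoring peak was also wider there, with medians of 636.5 against 448 bp and 683 against 474 bp. Whether a pair within 100 bp is 1 site split by the peak caller or a pair of sites was not tested. Merged at 100 bp, the 14782 peaks gave 14390 sites, and 10.4% of the sites were then grouped within 1 kb, 17.8% within 3 kb and 36.6% within 12.5 kb.

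The 10 largest SOX9 groups within 12.5 kb held 8 to 10 peaks each. The group with 10 lay at chr2:218107833-218125463, in 17.6 kb; all positions are on rn5. Its scores ran from 59.5 to 241 with a median of 72.8, and none of its peaks was in the highest quintile. Of its peaks 9 overlapped SOX6, 8 H3K27ac, 7 H3K4me3 and 2 H3K4me1. On the same chromosome, a group of 9 at chr2:217979374-218033886 was much the same in score, with a median of 72.5 and no peak in the highest quintile. It was 54.5 kb long, with a median gap of 8132.5 bp against 1267 bp in the first group. Of its peaks 5 overlapped SOX6, 7 H3K27ac, 8 H3K4me3 and 2 H3K4me1. In both, the median score was below the 90.3 of the whole list, with 3 peaks of the first group above it.

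Other large groups contained some of the highest-scoring SOX9 peaks of the list. The 9 peaks at chr7:26816793-26839496 reached a score of 2146, with 4 in the highest quintile, and all 9 overlapped H3K27ac. At chr4:62576570-62610724, 8 peaks reached 3036, the highest score below the shared value of 3100, next to 3 peaks of the lowest quintile. The 8 peaks at chr1:141669583-141688961 reached 2808. The 8 peaks at chr10:74131600-74151102 had the highest median score of the 10 groups, 246, and all 8 overlapped SOX6, H3K27ac and H3K4me1. The group of 9 at chr16:7704290-7726587 reached 905. It contains the group with most peaks at 1 kb, 7 peaks at chr16:7704290-7710819, in which SOX9 peaks covered 82.1% of 6.53 kb and all 7 overlapped both H3K27ac and H3K4me3. A group at chr4:198304147-198360321 held 9 peaks in 56.2 kb, with 8 of them on H3K4me1 and 1 on H3K4me3. The remaining 2 lay at chr1:250612219-250633886 and chr10:75321635-75342829, with 8 peaks each and highest scores of 311 and 409.

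At 1 kb, the other groups among the 5 with most peaks were chr7:26821530-26829246 (6 peaks), chr1:141669583-141675355, chr2:18228063-18233682 and chr3:120852032-120854977 (5 peaks each). The last of these packed 5 peaks into 2.95 kb, with gaps of 12 to 69 bp and scores up to 214, and all 5 overlapped SOX6, H3K27ac and H3K4me3. At 3 kb the 5 with most peaks were the chromosome 16 group from 7704290 to 7713660 (8 peaks), 3 groups of 6 and 1 of 5. The groups of 6 were chr2:18228063-18235356, chr2:218116024-218125463 and the chromosome 7 group already found at 1 kb, and the group of 5 was chr1:51644350-51649760.

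The 16 SOX9 peaks with the highest deposited score, 3100, were spread over 8 chromosomes, with 3 each on chromosomes 4, 9 and 19. Of these peaks, 9 had another SOX9 peak within 12.5 kb and 3 had one within 100 bp. In the whole highest quintile, 49.5% had one within 12.5 kb, and 5.19% of all SOX9 peaks had one within 100 bp. All 16 overlapped SOX6, H3K27ac and H3K4me1, 8 overlapped H3K4me3 and 1 H3K9me3. Peaks of the highest quintile wider than 840 bp were much the same, with 97.8% on SOX6, 99.4% on H3K27ac, 97.0% on H3K4me1 and 59.6% on H3K4me3. On chromosome 19, a pair of them (chr19:49220070-49221013 and chr19:49223578-49224581) lay in a group of 7 peaks. The group spans chr19:49215968-49235861 and also holds scores of 1240 and 2581. Between these high peaks stood peaks with scores of 74.99, 81.2 and 55.8. The peak at chr1:222494745-222495930 was followed after 2 bp by a peak with a score of 577 and preceded at 836 bp by one with 1394. The peak at chr4:29968317-29969869 began 62 bp after a peak with a score of 90.4. By contrast, 7 of the 16 stood alone at 12.5 kb, namely chr4:26336113-26337537, chr4:226072307-226073635, chr7:37326806-37328163, chr7:99628423-99630502, chr9:43853063-43854023, chr16:85598708-85600678 and chr19:50312731-50314967. The others with a neighbour in that distance were chr1:257191344-257192219, chr2:265718522-265719618, chr9:17756196-17758426, chr9:87531385-87533229 and chr18:37238494-37239573.

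Wider SOX9 peaks had higher scores. The median width was 323 bp (quartiles 244 and 476) in the lowest decile of score and 936 bp (729 and 1237) in the highest, and it was larger in every decile than in the one before. Over all peaks Spearman's rho between width and score was 0.54, and among peaks above the median score it was 0.39. Inside a decile the relation was weak, with rho between 0.03 and 0.09 in the lower 9 and 0.24 in the highest. Of all peaks, 54.3% scored under 100 and 2.94% scored 1000 or more. The 2 lowest scores in the list were 50.01 and 50.02. The 16 peaks at 3100 were 876 to 2237 bp wide, so the peaks with the highest score were not the widest.

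**Figure D2:**
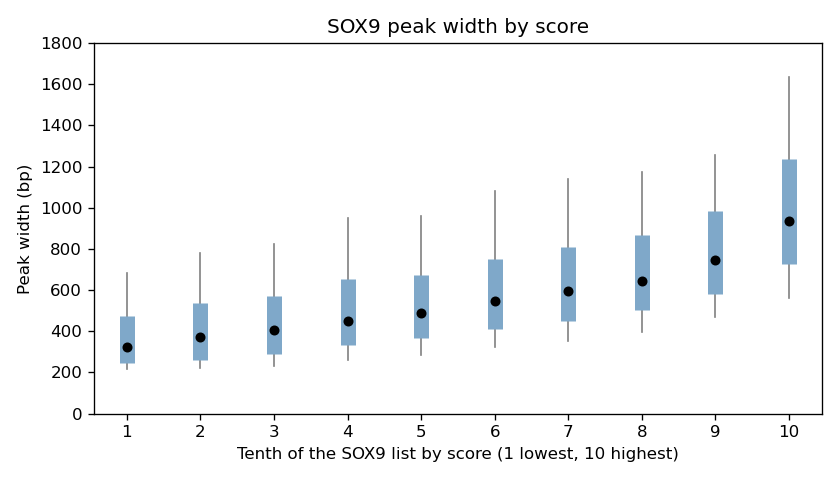
SOX9 peak width in bp by decile of the deposited score; points are medians, thick bars run from the lower to the upper quartile and thin lines from the 10th to the 90th percentile. The median goes from 323 bp in the lowest decile to 936 bp in the highest.

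The widest SOX9 peaks were of middling to high score and lay in marked chromatin. The 10 widest measured 4029 to 6027 bp with scores from 96.5 to 1211. All 10 overlapped H3K27ac, H3K4me1 and H3K4me3, and 9 overlapped SOX6. H3K9me3 was overlapped by 2 of them, both on chromosome 16, against 3.31% of all SOX9 peaks. The widest, at chr9:29258868-29264894, scored 668, and the next, at chr3:179802352-179807994, scored 1211. The others were chr9:50244651-50249428, chr16:50146410-50151075, chr16:49541480-49545952, chr16:50092958-50096986, chr11:93462519-93467179, chr7:44788962-44793425, chr7:99552876-99557318 and chr7:103155105-103159436. The peak on chromosome 11 had the lowest score, 96.5, and no SOX6 peak. In all, 221 SOX9 peaks were 2 kb or wider. Every one of the 221 overlapped H3K27ac and 86.0% overlapped H3K4me3, a mark found mainly at promoters. Of all SOX9 peaks, 80.2% and 39.8% did, but a wider interval meets a peak of another list more easily. Scores of the 221 went down to 50.22, and 65 of them scored under 100.

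Peak width also differed between chromosomes, and it moved with the SOX9 input. This input held 131858579 reads, of which 53.5% aligned, and 56256688 aligned without a mismatch. Exact-match reads per kb differed 2.93-fold between autosomes, and the median width of SOX9 peaks was 730.5 bp on chromosome 9, 735 bp on chromosome 7, 677 bp on chromosome 16 and 650 bp on chromosome 4. The lowest medians were 382 bp on chromosome 20, 465 bp on chromosome 15 and 468 bp on chromosome 5. Over the 20 autosomes, input reads per kb and median width had a Pearson r of 0.92 and a Spearman rho of 0.94. Without chromosomes 9 and 16, which were farthest from the median input, r was 0.88. It was 0.89 in the lowest quintile of score and 0.85 in the highest. The profile was not particular to the SOX9 input. The SOX6 input was likewise densest on chromosomes 16 and 9, at 20.6 and 20.2 exact-match reads per kb, against 35.2 and 34.9 in the SOX9 input. The SOX6 list against its own input gave an r of 0.92. These are descriptions over 20 chromosomes that share a library.

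Some chromosomes contained long stretches without a peak of any of the 6 lists, which lower both densities per length. There were 85 such stretches of at least 1 Mb, 241 Mb in all or 8.29% of the length, of which X held 14 stretches and 23.0 Mb. Without them, chromosome 4 stood at place 3 rather than 7 in SOX9 peaks per Mb, at 7.99 rather than 5.83, and r between input reads per kb and width was 0.95. The 5 autosomes with most input per remaining length were 16, 9, 7, 11 and 4. Their SOX9 peaks had a median width of 681 bp, against 495 bp on the other 15, and they held 78.3% of the peaks of 2 kb or wider but 31.7% of all peaks. In the lowest quintile of score the medians were 438 and 309 bp, and in the highest 1037.5 and 788.5 bp. What part the input reads, or whatever sets their number on a chromosome, have in these widths was not tested.

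**Figure D3:**
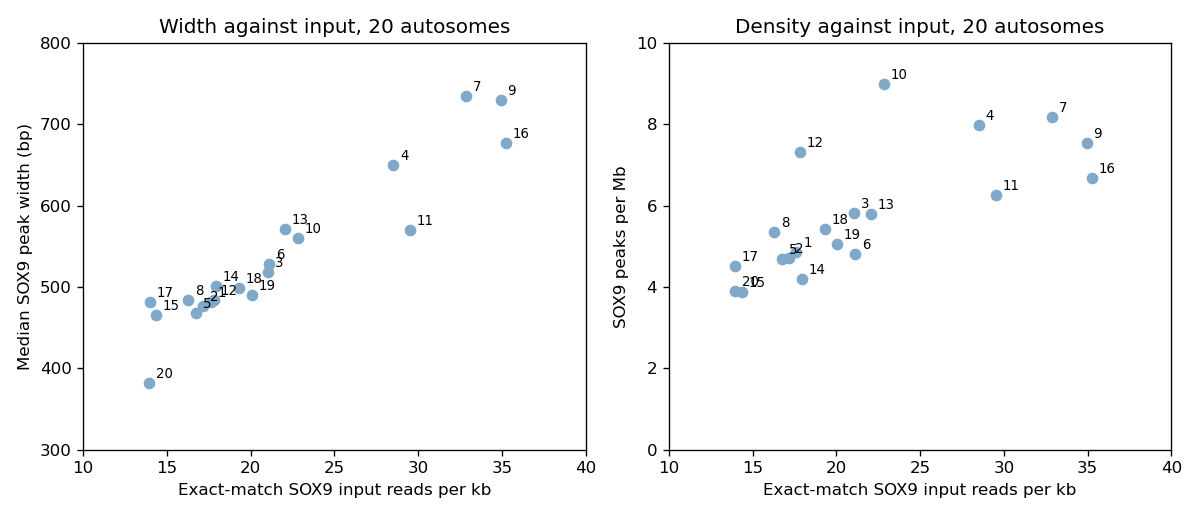
Each point is 1 of the 20 autosomes, labelled by its number; the x axes give exact-match SOX9 input reads per kb and the y axes the median SOX9 peak width in bp (left) and SOX9 peaks per Mb (right), with stretches of at least 1 Mb that are empty in all 6 lists left out of the length. Chromosomes 16, 9, 7 and 4 have high input and the widest peaks, chromosome 11 has more input than chromosome 4 but a median width of 570 bp, and chromosomes 10 and 12 have more peaks per Mb than others with like input.

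Autosomes with more input carried more SOX9 peaks, but tended to have fewer peaks for each input read. Over the 20 autosomes, input reads per kb and SOX9 peaks per Mb had an r of 0.75 (rho 0.86), or 0.72 (rho 0.80) without the empty stretches. All autosomes together had 267 SOX9 peaks per 1000000 exact-match input reads, the unit of all densities per read here. The density per read was lower where input was high, with an r of -0.46 (rho -0.42), which was -0.22 (rho -0.21) without chromosomes 9 and 16. Without the empty stretches, r was -0.50 (rho -0.54), and -0.29 (rho -0.37) when those 2 chromosomes were left out as well. Much of the relation thus rests on those 2 chromosomes. Input reads also stand in both measures, as the divisor of the density per read, which can give a negative r by itself. The slope of log10 peaks per Mb on log10 input reads per kb was 0.71, where a value of 1 would mean equal peaks per read.

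Chromosomes 12 and 10 had most SOX9 peaks per input read. Chromosome 12 had 411 (371 to 454) and chromosome 10 had 394 (370.0 to 419), followed by chromosome 8 with 329 (305 to 355). The lowest were chromosome 16 with 189 (175 to 205), chromosome 11 with 212 (195 to 231) and chromosome 9 with 216 (202 to 230). The intervals of the 3 highest and the 3 lowest do not overlap, but these chromosomes were picked by the same values. Of the 20 intervals, 10 leave out the value of all autosomes. The intervals take peaks as independent counts and allow for no error in the input. Per Mb the order differed: chromosome 16 was in place 5 of 20 with 6.67 SOX9 peaks per Mb, and chromosome 10 was first with 8.90. On chromosome 11 only 45.4% of aligned reads matched without a mismatch, against a median of 86.2% over chromosomes, and with all aligned reads it became the lowest autosome, at 96.3 peaks per 1000000 reads. Chromosome X, set apart here, had 167 SOX9 peaks and a density per read of 108 (92.0 to 125), below every autosome. SOX6 peaks per read of the SOX6 input followed a like order over the autosomes, with an r of 0.95 to the SOX9 values (0.90 without chromosomes 10 and 12).

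**Figure D4:**
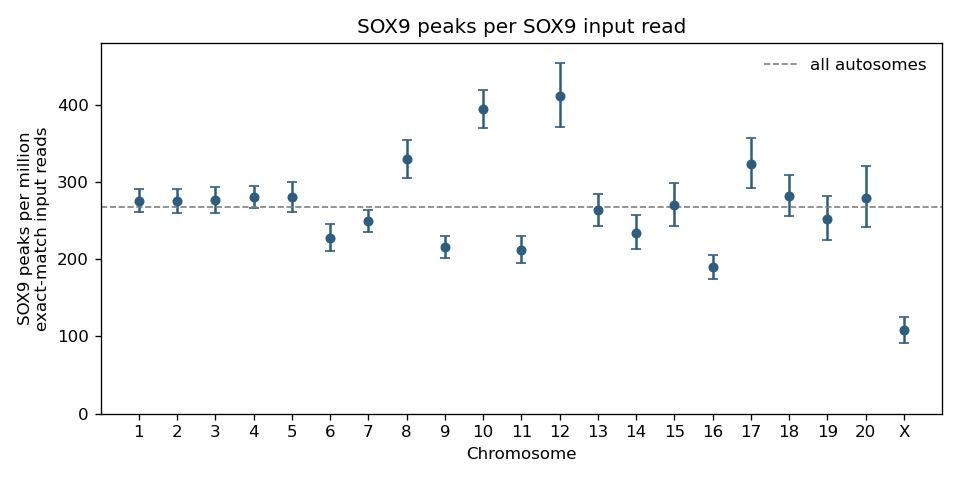
SOX9 peaks per 1000000 exact-match reads of the SOX9 input on each chromosome, with exact Poisson 95% intervals as bars and the value of all autosomes as a dashed line. Chromosomes 12 and 10 stand highest at 411 and 394, chromosome 16 is the lowest autosome at 189, and X lies at 108.

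Scores and spacing followed the chromosome as well. The median SOX9 score was lower where input was high, with an r of -0.60 and a rho of -0.78 over the autosomes, and ran from 79.5 on chromosome 13 and 79.7 on chromosome 16 to 113 on chromosome 17 and 114 on chromosome 15. Without the empty stretches r was -0.64 (rho -0.75), whereas the SOX6 scores against the SOX6 input gave an r of -0.26 (rho -0.28). The share of peaks above the median score of the list was 42.7% (38.9% to 46.5%) on chromosome 13 and 59.4% (54.3% to 64.3%) on chromosome 15. Chromosome 10 had the nearest neighbours, at a median of 13.1 kb, and 50.3% of its peaks were in groups within 12.5 kb. On chromosome 20 the values were 52.4 kb and 27.3%, and on X 88.1 kb and 22.2%.

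SOX9 was not called at all over long parts of the genome. Gaps of at least 1 Mb between successive SOX9 peaks, called deserts here, numbered 486. They were 3.29% of all gaps and took up 1040 Mb, 35.9% of the length, with a median of 1.51 Mb. A total of 142 were 2 Mb or longer and 23 were 5 Mb or longer. Chromosome X was 81.2% desert, chromosome 19 50.05% and chromosome 15 46.1%, against 15.7% of chromosome 9 and 17.01% of chromosome 7. Over the autosomes, the desert share and input reads per kb had an r of -0.82 (rho -0.72). Both were taken over the full length. A long stretch without a peak of any list can raise the desert share and lower input reads per kb together. Such stretches of at least 1 Mb made up 237 Mb of the deserts. With them left out, 30.2% of the remaining length lay in deserts. This relation was not computed without them, so their part in it was not tested.

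The longest SOX9 desert, 65.5 Mb at chr4:67918093-133420449, was almost empty in the other lists too, with 21 peaks of them in all. Its 2 SOX9 neighbours scored 248 and 65.7, and 65.2 Mb of it in 1 stretch held no peak of any of the 6 lists. Of the 10 longest, 3 others were alike. These were chr2:20934871-40832621 (19.9 Mb), chr19:11618216-23964618 (12.3 Mb) and chr6:9804415-20214615 (10.4 Mb), with 98.7%, 92.2% and 99.0% of their length in 1 stretch without any peak. The sequence of rn5 was not used here, and whether the assembly has sequence in these stretches to which reads can align was not tested.

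The deserts above held 21 to 37 peaks of other lists each, and the other 6 of the 10 longest held 34 to 78. In these 6, the longest stretch without any peak took up 10.8% to 27.2% of the length. Those on X were chrX:87170748-104573210 (17.4 Mb), chrX:46029052-57784960 (11.8 Mb) and chrX:141459563-152189564 (10.7 Mb), with 10, 26 and 8 H3K27ac peaks and 3, 5 and 1 SOX6 peaks. The deserts at chr8:14046740-21478810 (7.43 Mb), chr3:79240855-86472487 (7.23 Mb) and chr15:93715445-100297359 (6.58 Mb) held 13, 16 and 12 H3K27ac peaks. Places with H3K27ac were thus few but present in these 6, and the deserts above held 2 to 5 H3K27ac peaks each. That no SOX9 peak was called inside a desert follows from its definition.

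SOX9 deserts were sparse in the active marks and less so in H3K9me3, the mark of heterochromatin. H3K27ac had 3.11 peaks per Mb inside the deserts (3.004 to 3.22) and 25.6 outside (25.3 to 25.8). SOX6 had 0.977 (0.918 to 1.04) and 9.85 (9.71 to 9.995), and H3K4me1 5.67 and 46.5. H3K4me3 differed less, at 2.30 and 11.1, and H3K9me3 least, at 10.8 (10.6 to 11.0) and 22.1 (21.9 to 22.3). Without the stretches empty in all lists, the densities outside were 7.79 times those inside for SOX6, 6.36 times for H3K27ac, 6.33 times for H3K4me1, 3.74 times for H3K4me3 and 1.58 times for H3K9me3. Of the deserts, 106 held no SOX6 peak, 40 no H3K27ac peak and 2 no peak of any other list. SOX6 peaks in them scored low: 9.79% of the lowest quintile of SOX6 score lay in SOX9 deserts and 1.32% of the highest. A desert holds no SOX9 peak by definition, so any peak of another list that overlaps a SOX9 peak lies outside. Of all SOX9 peaks, 56.3% overlapped SOX6 and 80.2% H3K27ac, so these differences follow in part from the definition. The desert with most H3K27ac peaks, 52, was short (chr9:10266739-11437406, 1.17 Mb). The one with most H3K9me3 peaks, 613, lay at chr12:33726263-36350108, with 0 H3K27ac and 0 SOX6 peaks. These 2 were singled out after their values were seen.

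The 889 SOX9 peaks at the edge of a desert scored 78.7 in the median, against 91.2 for the rest, and 60.5% of them (57.3% to 63.7%) overlapped H3K27ac, against 81.5% (80.8% to 82.1%). For SOX6 the shares were 41.5% and 57.3%. H3K9me3 was near even, at 2.92% (2.004% to 4.25%) and 3.34% (3.05% to 3.65%).

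SOX9 peaks with near SOX9 neighbours overlapped H3K27ac, SOX6 and H3K4me3 more often than isolated ones. H3K27ac was present at 97.3% (96.5% to 97.9%) of SOX9 peaks with a neighbour within 1 kb, 78.1% (77.0% to 79.1%) of those 12.5 to 100 kb from one and 42.0% (36.9% to 47.3%) of those over 500 kb away. SOX6 was present at 68.4%, 54.4% and 33.7%, and H3K4me3 at 54.6%, 39.2% and 16.3%. H3K4me1 was most frequent at 1 to 3 kb, with 86.4%, against 81.8% within 1 kb, 83.1% at 3 to 12.5 kb and 41.1% over 500 kb away. Peaks without any of the 4 histone marks made up 0.820% of those within 1 kb and 44.4% (39.2% to 49.7%) of those over 500 kb away. H3K9me3 stayed between 2.88% and 4.39% in all 6 classes of distance. Isolated SOX9 peaks also had lower scores, with a median of 66.5 over 500 kb and 106 within 1 kb, and they were narrower, 344.5 against 544 bp.

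Shares were also higher in groups at 12.5 kb than among single peaks. H3K27ac was present at 72.6% of single SOX9 peaks, 89.5% of those in pairs, 93.5% in groups of 3 and 96.5% in groups of 5 or more. SOX6 was present at 50.7%, 62.2%, 67.3% and 69.1% (70.3% in groups of 4), and H3K4me3 at 36.4%, 41.6%, 46.3% and 55.7%. H3K4me1 was present at 69.4% of single peaks, 87.4% in groups of 4 and 82.1% in groups of 5 or more.

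For H3K27ac, the shares differed more with distance within the lowest quintile of score and little within the highest. Among the lowest-scoring SOX9 peaks, 93.4% (90.1% to 95.6%) of those with a neighbour within 1 kb overlapped H3K27ac and 11.6% (6.91% to 18.9%) of the 112 over 500 kb away did. Among the highest-scoring peaks 99.4% and 93.9% did (80.4% to 98.3%), the latter over 33 peaks. For H3K4me3 the values there were 56.9% (52.7% to 61.0%) and 36.4% (22.2% to 53.4%), with intervals that overlap slightly, and for SOX6 96.1% and 97.0%. For SOX6 the shares in the lowest quintile were 34.8% and 8.93%. A SOX9 peak inside a wide H3K27ac peak shares it with its neighbours, so these shares are not over independent places.

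**Figure D5:**
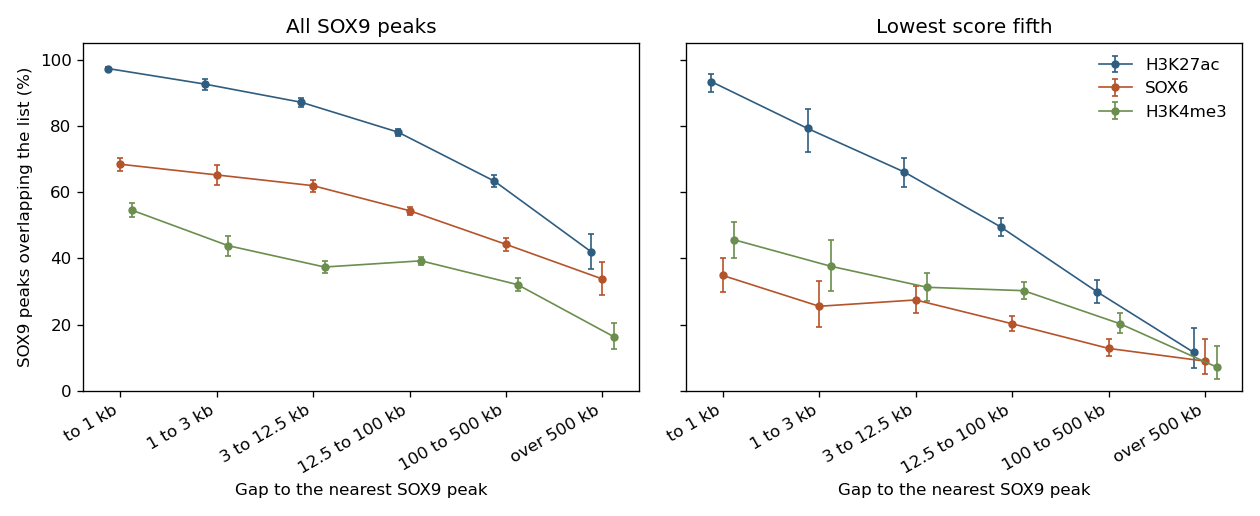
Share of SOX9 peaks that overlap an H3K27ac, SOX6 or H3K4me3 peak, by gap to the nearest SOX9 peak, for all SOX9 peaks (left) and for the lowest quintile of score (right); bars are Wilson 95% intervals. H3K27ac goes from 97.3% to 42.0% on the left and from 93.4% to 11.6% on the right.

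Wider SOX9 peaks overlapped H3K4me3 more often in all 5 quintiles of score. Since width differed between chromosomes, peaks were split at the median width of their own chromosome and score quintile. In the lowest quintile, H3K4me3 was present at 43.6% (41.1% to 46.2%) of the wider SOX9 peaks and at 14.997% (13.3% to 16.9%) of the narrower ones. Among the highest-scoring peaks it was present at 58.5% (56.0% to 61.0%) and 33.8% (31.4% to 36.2%). For H3K27ac they were 72.9% and 31.9% among the lowest-scoring peaks, and 99.4% and 96.0% among the highest-scoring ones. A wider peak has more room to touch another. For peak centres inside H3K4me3 peaks the order was the same, at 42.1% against 14.5% of low-scoring peaks and 50.4% against 29.0% of high-scoring ones. For centres inside H3K4me1 peaks it was the same among low-scoring peaks, at 59.8% against 28.5%. Among high-scoring peaks it was not, at 76.2% of the wider and 77.4% of the narrower, against 96.1% and 88.6% by overlap. What part width alone has in the overlaps was not tested. SOX6 was present at 30.8% of the wider and 11.4% of the narrower SOX9 peaks of the lowest quintile.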

How the data were processed

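The members and lists were chosen with earlier results of these data known. Per the submitters' processing notes, CASAVA 1.8 and the rat build rn5 were used. Deposited peak names carry the name of MACS. Its version, settings and input, the aligner and the read filters are not stated in any source at hand. The authors deposited a score per peak, without its scale. The deposited input files hold raw read counts per chromosome, split by mismatches. The depth of the immunoprecipitation is unknown here.

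Peak starts were taken as 0-based and are printed 1-based. The last peak end over the 6 lists stood in for chromosome length. Gaps run from edge to edge, and overlap means at least 1 bp. With 1 library a group, no test was run and correlations carry no p. The counting was tested on simulated data. Regions named are the peaks at the highest score, the 10 widest peaks, the groups with most peaks (10 at 12.5 kb, 5 at 1 and 3 kb), the 10 longest deserts, and the 3 highest and lowest autosomes. Python 3.11.15, NumPy 2.4.6, pandas 2.3.3 and SciPy 1.17.1 were used. Peak sequences were not used here.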

Additional observations from a re-analysis of the deposited data

How the results depend on the processing

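No paired analysis was possible because each antibody and each input has 1 library. Of 33 alternatives for 9 results, 14 left the value inside the counting interval (or a count within 1.5 times), 19 moved it and 0 turned a direction. A turned direction was looked for only in the results on input density with width and on H3K27ac, so the 0 says nothing about the others. Of the 33, 14 were chosen after seeing the data, namely those on merged peaks, empty stretches, input density with width, and H3K27ac. Among peaks above the median score, which leaves fewer peaks, the median distance to the nearest SOX9 centre was 40.5 kb in place of 23.0 kb, the shares in groups were 9.94%, 15.6% and 30.2% in place of 14.9%, 21.8% and 39.5%, and rho between width and score was 0.39 in place of 0.54. From edge to edge the median distance was 22.4 kb, and from centre to centre the shares were 9.25%, 19.3% and 38.6%. With peaks within 100 bp merged, the distance was 25.9 kb and the shares 10.4%, 17.8% and 36.6%. The ratio of the highest to the lowest autosome in SOX9 peaks per 1000000 exact-match reads was 2.17, and it was 3.62 with all aligned reads and 2.74 per Mb. Deserts numbered 1312 at 0.5 Mb and 142 at 2 Mb, against 486 at 1 Mb. The difference in H3K27ac share between SOX9 peaks with a neighbour within 1 kb and those over 500 kb away was 55.3 percentage points, 81.7 in the lowest quintile of score and 5.50 in the highest. The depth of the SOX9 immunoprecipitation is unknown here, so a desert is a stretch without a called peak, and sites under the lowest score of 50.01 are not in the list.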
